A study of Homo sapiens and Mus musculus with 30 samples.

Results

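Messenger RNAs of 10 genes that make, load and use microRNAs were followed as the RNA-binding protein LIN28B was raised in steps. The genes were taken by symbol from the deposited tables: DROSHA, DGCR8, XPO5, DICER1, AGO1, AGO2, TNRC6A, TNRC6B, ZCCHC11 and DIS3L2. All 10 were found among the 11342 genes of the human HEK293A table, among the 41128 of the mouse NIH3T3 table and among the 57820 of the let-7a table. ZCCHC11 is named TUT4 in RefSeq.

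MicroRNAs are cut from long nuclear transcripts by DROSHA with its partner DGCR8, carried to the cytoplasm by XPO5 (exportin 5), trimmed by DICER1 and loaded into Argonaute proteins such as AGO1 and AGO2, which repress matching mRNAs through the TNRC6 scaffolds. LIN28 proteins bind precursors of the let-7 microRNA family and keep them from maturing. The uridylyltransferase ZCCHC11 tails such precursors, and the exonuclease DIS3L2 degrades the tailed forms. Mature let-7 in turn recognises sites in the DICER1 mRNA, and the DROSHA-DGCR8 complex can cleave hairpins in the DGCR8 mRNA.

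HEK293A cells derive from human embryonic kidney, and NIH3T3 cells are mouse fibroblasts; both were grown in DMEM with serum. In each line there were 5 LIN28B levels: X0, a LIN28B knockout, and X1, X2, X3 and X4, in which LIN28B transgenes were induced with doxycycline to increasing amounts. The labels do not say whether X0 cells also received doxycycline, or whether a level is 1 clone. Each level has 1 total RNA and 1 polysome RNA column per line, although the study's design text speaks of 2 replicates, so the error of every slope below is the scatter around a straight line over the 5 levels. X0 HEK293A cells transfected with 10 nM mature let-7a gave 1 further library of each fraction, and 8 small RNA libraries came from HEK293A.

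The let-7a sequence that was transfected, and 2 of its hairpins, are shown because the study manipulates this microRNA and because ZCCHC11 and DIS3L2 are known for the decay of its precursors. They are from RefSeq on GRCh38.p14. Capitals mark the seed, bases 2 to 8 of the mature strand, and in the hairpins each GGAG, the letters that the zinc knuckles of LIN28 recognise. MIRLET7A1 lies at chr9:94175957-94176036 on the plus strand, and MIRLET7A3 at chr22:46112749-46112822 on the plus strand.
hsa-let-7a-5p: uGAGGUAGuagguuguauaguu
MIRLET7A1: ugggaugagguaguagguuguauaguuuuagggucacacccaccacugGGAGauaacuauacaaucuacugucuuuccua
MIRLET7A3: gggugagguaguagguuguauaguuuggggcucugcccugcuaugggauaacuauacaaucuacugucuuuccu
The 5p strands of all 12 let-7 and miR-98 hairpins listed carry the seed GAGGUAG, while 9 of the 12 hairpins hold GGAG between the 2 arms; MIRLET7A3, MIRLET7B and MIR98 do not. On the given strand, 43.4% of the 1562 RefSeq hairpins hold GGAG somewhere.

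LIN28B itself checks the labels in HEK293A, where its total RNA was 3.60, 23.0, 33.4, 81.2 and 208 RPKM from X0 to X4. In NIH3T3, where only reads on the mouse gene are listed, it had 1, 1, 1, 9 and 42 total RNA reads, so X3 and X4 are in order but the order of X0, X1 and X2 is not checked. Reads recovered from the RPKM steps came to 37658383 to 56008058 per total RNA library and 9086118 to 14593637 per polysome library in HEK293A, and to 15930463 to 25003611 per library in NIH3T3. Of the HEK293 markers, KRT8, KRT18, VIM, NEFL and LHX1 were listed and PAX2 and NEFM were not in the human table. All 8 fibroblast markers were present in NIH3T3. Of 5 markers of other cell types there, PTPRC, EPCAM and ALB were at 0, PECAM1 was at 0.0321 to 0.0771 RPKM and DES at 0.353 to 1.58 RPKM in total RNA.

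In HEK293A total RNA, XPO5 at 29.3 ± 1.38 RPKM (SD over 5 levels) and DROSHA at 28.8 ± 0.967 were the most abundant of the 10 and did not differ beyond that spread. DGCR8 at 13.9 ± 0.641, DICER1 at 12.6 ± 2.43, TNRC6A at 11.8 ± 0.247, AGO2 at 10.8 ± 0.701 and AGO1 at 10.4 ± 0.331 followed. The DICER1 spread covered all 4 of these neighbours, and AGO2 and AGO1 overlapped. ZCCHC11 at 8.06 ± 0.257, TNRC6B at 2.73 ± 0.128 and DIS3L2 at 1.47 ± 0.0932 were lower and stood apart from one another. Ribosome occupancy is the log2 ratio of polysome to total RPKM, with 0.5 added to each. All 10 genes lay below the median occupancy of the 11125 genes tested, which was -0.43. AGO2 at -1.67, ZCCHC11 and TNRC6A at -1.60 and DGCR8 at -1.59 were in the lowest 2.23 to 2.89% of genes. The 10 mRNAs are mostly long: 9 lay at or above the 78.1st percentile of gene length and AGO2 at the 52.1st. Across genes, length and mean occupancy had a Spearman rho of -0.43, and its part in these low values was not tested.

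Over the LIN28B series in HEK293A, DICER1 was the only one of the 10 whose occupancy rose, and 5 fell: DGCR8, XPO5, AGO2, TNRC6A and DIS3L2. Total RNA passed the test for none of the 10. With limma and Benjamini-Hochberg adjustment over all genes, occupancy passed at an adjusted p under 0.05 in the higher direction for 19.1% of all 11125 genes and in the lower direction for 39%. The counts of 1 and 5 of 10 are near those shares. The median gene fell by 0.07 per level, and by 0.32 from X0 to X4, so part of each slope is a shift common to the libraries. In bulk RNA, fewer cells with a transcript and less of it per cell cannot be told apart. After centring each library on its trimmed mean, 1 of the 10 rose and 2 fell, DGCR8 and AGO2, against 28.7% and 27% of all genes.

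**Figure D1:**
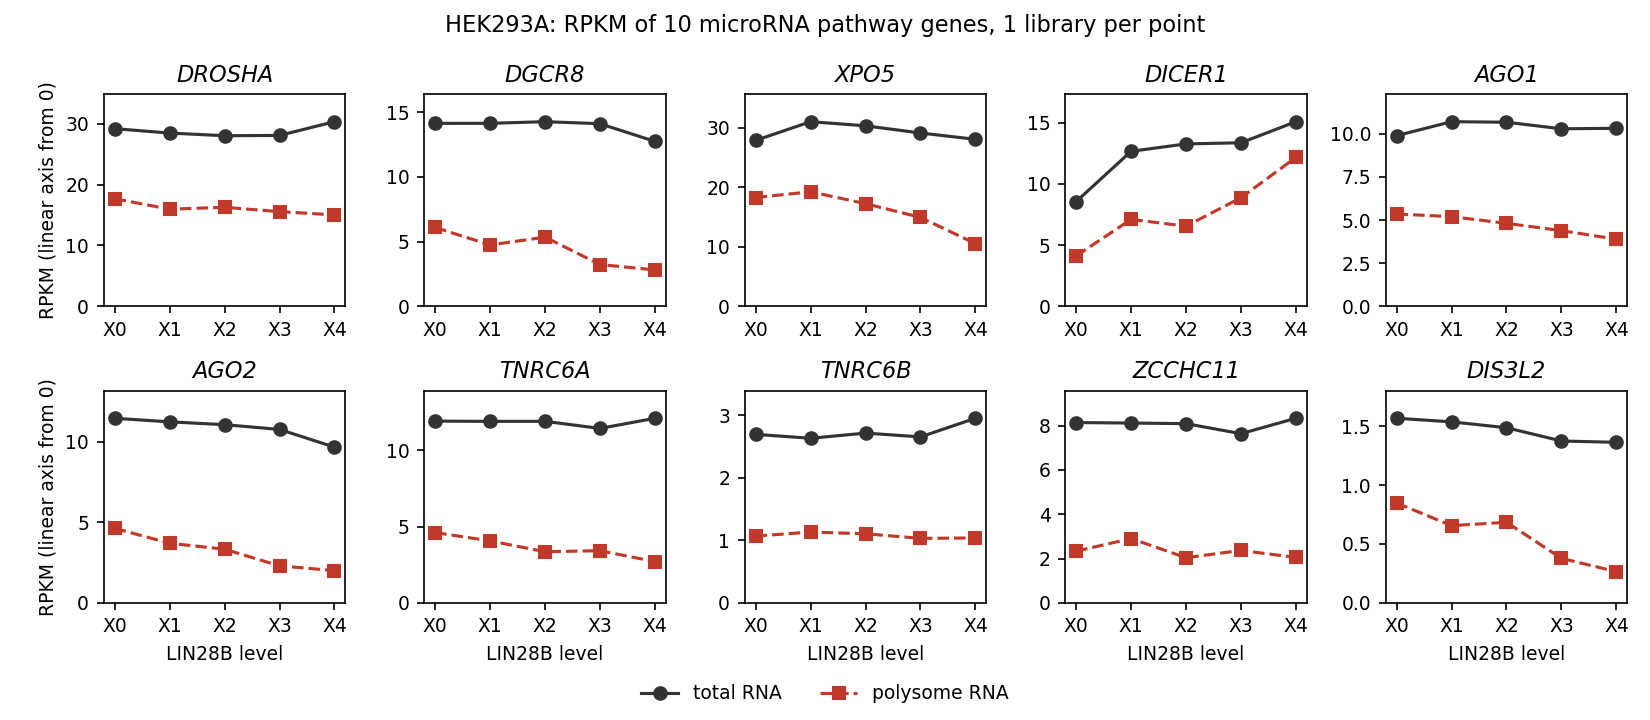
RPKM (linear axes from 0) of each gene in HEK293A total RNA (black circles) and polysome RNA (red squares) at levels X0 to X4, 1 library per point. DICER1 is lowest at X0 and highest at X4 in both fractions, while polysome DGCR8 and AGO2 are lowest at X4; AGO2 total RNA goes from 11.5 to 9.67 RPKM over the same levels.

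DROSHA, the nuclease of the nuclear step, had 29.2, 28.5, 28.0, 28.1 and 30.4 RPKM in total RNA and 17.7, 16.0, 16.3, 15.6 and 15.0 in polysome RNA from X0 to X4. Both fractions stayed within a narrow band. Its occupancy slope was -0.06 ± 0.05 log2 per level (SE, limma adjusted p = 0.333), and 0.01 with the libraries centred, so its sign depends on the scaling.

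DGCR8, which binds the hairpin for DROSHA, had 14.1, 14.2, 14.3, 14.1 and 12.7 RPKM in total RNA. Its polysome RNA was 6.10, 4.74, 5.35, 3.23 and 2.81 RPKM, with X3 and X4 below the 3 lower levels. Occupancy fell by 0.22 ± 0.06 log2 per level (limma adjusted p = 0.0104) and ended 0.555-fold of X0 at X4. With the libraries centred it fell by 0.15 per level (adjusted p = 0.0484), and with quantile normalization the adjusted p was 0.0612. The difference between DROSHA and DGCR8 was not tested.

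XPO5, the export receptor for precursors, had 27.8, 31.0, 30.3, 29.1 and 28.0 RPKM in total RNA, with X0 and X4 lowest. Its polysome RNA was 18.3, 19.2, 17.2, 14.9 and 10.5 RPKM, so that X4 stood apart below the other levels. Occupancy fell by 0.18 ± 0.05 per level (limma adjusted p = 0.0148), a call lost with centring (adjusted p = 0.0772) and with edgeR on recovered reads (adjusted p = 0.0621).

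DICER1, the cytoplasmic nuclease, had 8.56 RPKM of total RNA at X0 and 12.7, 13.3, 13.4 and 15.1 at X1 to X4. Its polysome RNA was 4.12, 7.10, 6.55, 8.87 and 12.2 RPKM. X0 was the lowest and X4 the highest in both fractions, and all 4 libraries with LIN28B lay above X0. Polysome DICER1 rose by 0.32 ± 0.06 log2 per level (limma adjusted p = 0.00389), 2.75-fold from X0 to X4, and lay at the 97.3rd percentile of all slopes. Total RNA had a slope of 0.16 ± 0.04, a 1.72-fold difference from X0 to X4 at the 99.1st percentile, but did not pass (adjusted p = 0.0559). Occupancy rose by 0.16 ± 0.06 (adjusted p = 0.0349), and by 0.22 with the libraries centred (adjusted p = 0.0107). The ratio of polysome to total RPKM was 0.481, 0.561, 0.493, 0.664 and 0.806, so X0 and X2 were close and X3 and X4 were higher.

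The total RNA result of DICER1 sits at the threshold and turns on single levels. Its limma adjusted p was 0.00852 without X1, 0.0274 without X2 and 0.0166 over log2 LIN28B RPKM. It was 0.0905 without X3, 0.0714 without X4, 0.0848 with centring and 0.0665 with quantile normalization. Without X0 it was 0.408, where the slope was 0.07. With edgeR on recovered reads the adjusted p was 0.0647. The occupancy call of DICER1 was lost without X0, X3 or X4 (limma adjusted p = 0.159, 0.0817 and 0.358). Its polysome RNA call was lost without X0 or X4 (limma adjusted p = 0.0851 and 0.0849).

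AGO1 had 9.89, 10.7, 10.7, 10.3 and 10.3 RPKM in total RNA and 5.35, 5.20, 4.81, 4.39 and 3.89 in polysome RNA, each polysome value below the one before. Its occupancy slope of -0.11 ± 0.05 did not pass (limma adjusted p = 0.0728). AGO2, the Argonaute with slicing activity, had 11.5, 11.2, 11.1, 10.8 and 9.67 RPKM in total RNA and 4.62, 3.70, 3.33, 2.30 and 2.00 in polysome RNA. Both AGO2 series were highest at X0 and lowest at X4. Occupancy of AGO2 fell by 0.21 ± 0.05 per level (limma adjusted p = 0.00738), to 0.573-fold at X4, and by 0.15 with centring (adjusted p = 0.0358). With quantile normalization the adjusted p was 0.0571. The 106 polysome reads of AGO2 at X4 limit that value.

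Of the scaffolds, TNRC6A had 11.4 to 12.1 RPKM of total RNA and 4.61, 4.06, 3.35, 3.42 and 2.70 RPKM of polysome RNA, X0 highest and X4 lowest. Its occupancy fell by 0.16 ± 0.05 per level (limma adjusted p = 0.0277), which was lost with centring (adjusted p = 0.159). TNRC6B had 1.03 to 1.13 RPKM in all 5 polysome libraries and a slope of -0.04 ± 0.05 (adjusted p = 0.528), which was 0.03 when centred.

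Of the let-7 precursor decay genes, ZCCHC11 had 2.33, 2.90, 2.04, 2.36 and 2.05 RPKM of polysome RNA with no order over the levels, and an occupancy slope of -0.05 ± 0.06 (limma adjusted p = 0.455), or 0.01 when centred. DIS3L2 was the scarcest of the 10. Its polysome RNA was 0.848, 0.655, 0.684, 0.378 and 0.265 RPKM, on 119 reads at X0 and 33 at X4, and X3 and X4 lay below the rest. Occupancy of DIS3L2 fell by 0.16 ± 0.05 per level (limma adjusted p = 0.0228), with an adjusted p of 0.132 after centring and 0.0137 with edgeR. Its polysome values at X3 and X4 lie below the added 0.5 RPKM, so the slope depends on that setting. With 0.1 added the slope was -0.29 (limma adjusted p = 0.00794). With 1 added it was -0.10 and did not pass (limma adjusted p = 0.0715).

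**Figure D2:**
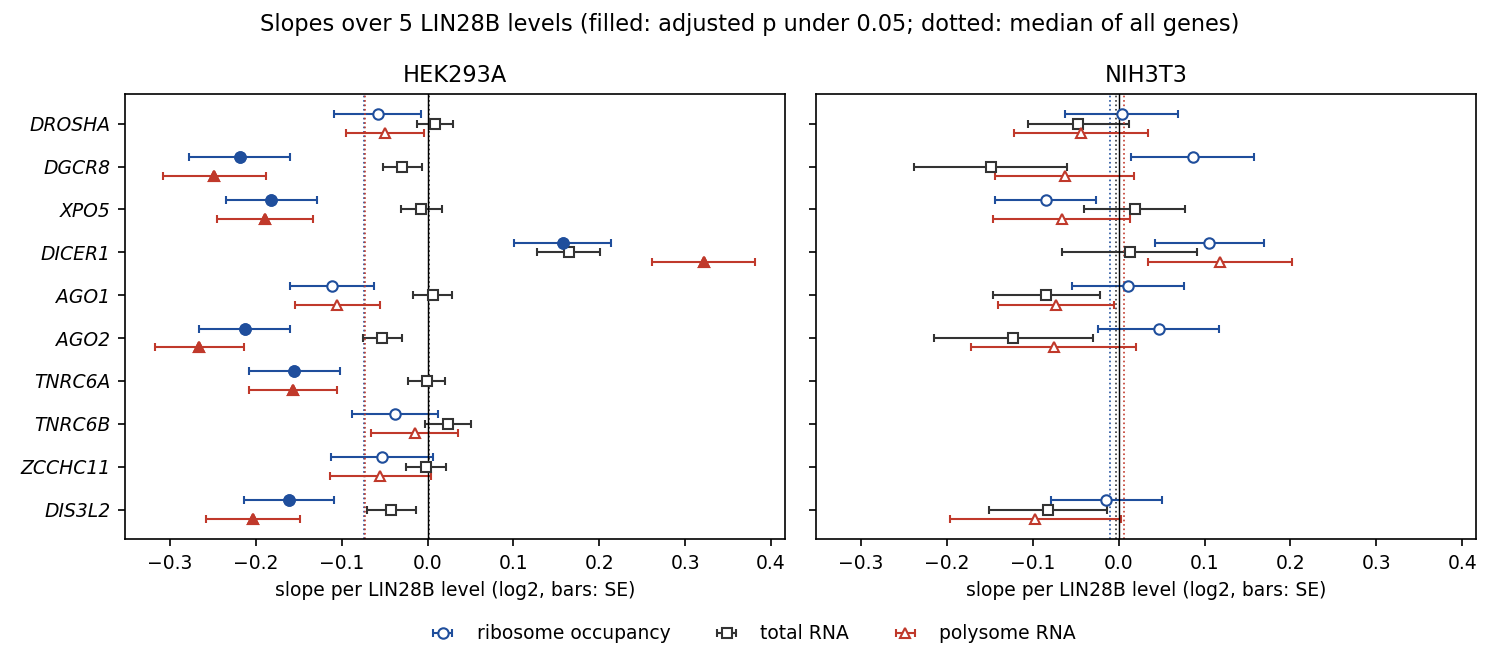
Slope per LIN28B level (log2, x axis; bars, SE from limma) of occupancy (blue circles), total RNA (black squares) and polysome RNA (red triangles) for each gene, HEK293A left and NIH3T3 right; filled symbols have an adjusted p under 0.05 and dotted lines are medians of all genes. In HEK293A, 1 filled occupancy symbol lies above 0 and 5 below, no total RNA symbol is filled, and in NIH3T3 none is filled.

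The polysome RNA counts were the same as for occupancy: DICER1 rose and the same 5 genes fell, against 20.3% and 38.6% of all genes. Polysome RNA and occupancy share the polysome libraries, so they are not separate evidence. For total RNA, 0 of 10 passed with limma and 0 with edgeR, against 2.25% of all genes with limma. At an unadjusted limma p under 0.05, DICER1 was higher and AGO2 lower, beside 1125 higher and 886 lower of 11125 genes. The counts of 1 and 1 of 10 are near those shares. No member passed for occupancy without X0 or without X4, or with X0 set against the other levels together. Without X4, 0 of all genes passed, and without X0, 1674 did.

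Partner genes of the pathway were read from 5 lists holding 95 further genes, of which 86 were tested in HEK293A. Occupancy rose for 20 and fell for 27 of them (32 and 23 with centring), with a median slope of 0.01 against -0.07 for all genes. These counts, and those of each list below, stand beside 19.1% higher and 39% lower over all genes, or 28.7% and 27% with centring, and nothing particular to the lists is read from them. Among partners of the nuclear step, 5 of 16 rose and 7 fell. KHSRP, a let-7 precursor binding protein, fell by 0.40 ± 0.06 per level and SRRT (ARS2) by 0.35 ± 0.06, each at a limma adjusted p of 0.00319. KHSRP went from 101 to 31.6 RPKM in polysome RNA between X0 and X4, with 156 and 151 in total RNA.

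Of 4 export and dicing partners, RAN, the GTPase that exportins use, rose by 0.16 ± 0.04 (limma adjusted p = 0.010) and none fell. Of 17 other Argonaute and loading genes, 5 rose and 5 fell, among the latter FXR2 by 0.34 ± 0.05, the helicase MOV10 by 0.32 ± 0.05 and SND1 by 0.33 ± 0.06. Of 30 deadenylation and decapping genes, 4 rose and 11 fell, including the decapping cofactors EDC3 by 0.28 ± 0.05 and EDC4 by 0.34 ± 0.07, and LSM14B by 0.32 ± 0.05. Of 19 uridylation and decay genes, 5 rose and 4 fell: the terminal uridylyltransferase TUT1 fell by 0.36 ± 0.06, and of the exosome subunits EXOSC6 fell by 0.31 ± 0.07 while EXOSC9 rose by 0.22 ± 0.05. In total RNA 2 of the 86 rose, beside 1.48% of all genes, and 0 fell. The chaperone DNAJA1 rose by 0.13 ± 0.02 (limma adjusted p = 0.0204) and the chaperone HSPA8 by 0.10 ± 0.02 (adjusted p = 0.0346, or 0.0602 with centring).

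In NIH3T3, no member passed for any trend. Tnrc6a, Tnrc6b and Zcchc11 averaged under 1 RPKM and were not tested. Of the 7 tested, 0 passed for occupancy, total RNA or polysome RNA with limma or with edgeR on recovered reads, and the background was 0% of 10952 genes in all 3. At an unadjusted p under 0.05, 294 genes had higher and 258 lower occupancy slopes, and 0 of the 7 members passed that in any of the 3 trends. The largest member slopes in occupancy were Dicer1 at 0.11 ± 0.06 (adjusted p = 0.639) and Dgcr8 at 0.09 ± 0.07 (adjusted p = 0.654). In simulated data with known slopes, limma recovered 26% of genes changed by 0.25 per level in NIH3T3 and 53% in HEK293A. Of the genes called there, 2.70% in NIH3T3 and 6.75% in HEK293A were false. The simulation changed only 200 genes per line, with noise independent between genes and no shift shared by a library. These shares may therefore not hold for the real libraries.

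**Figure D3:**
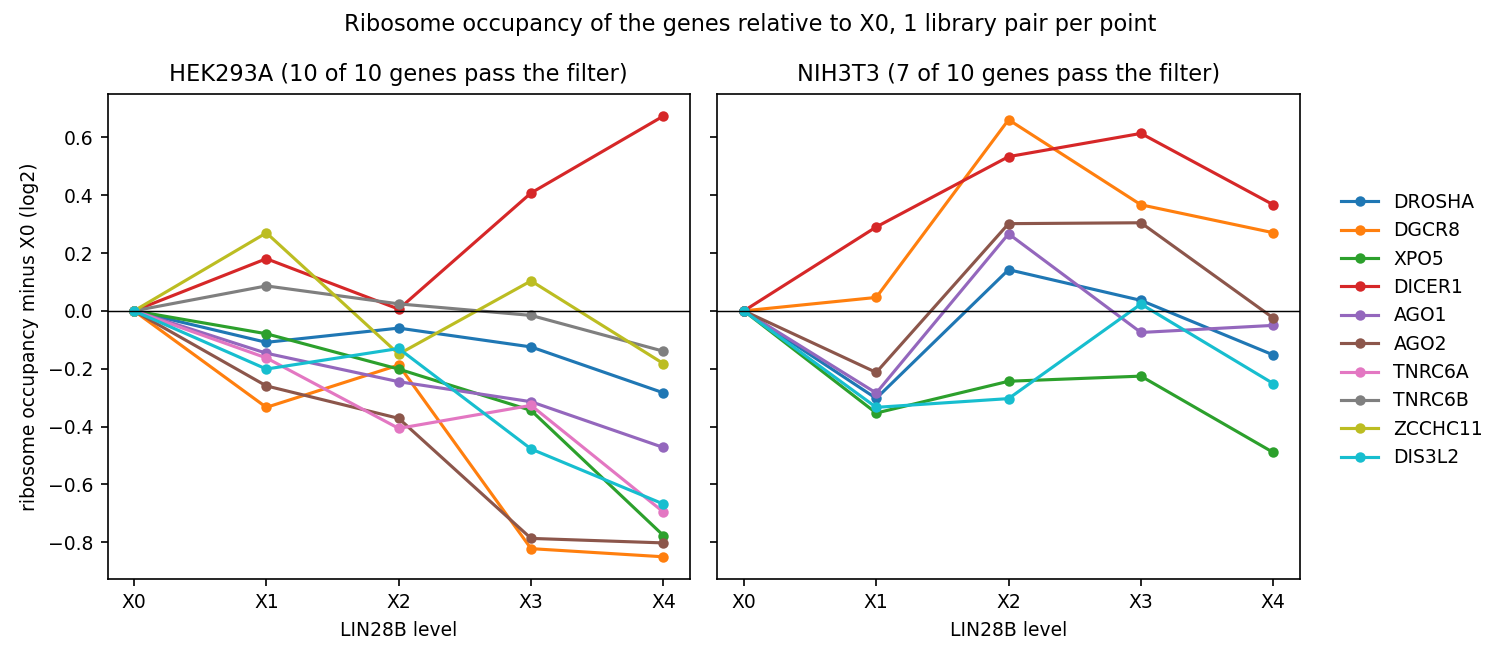
Ribosome occupancy minus its X0 value (log2, y axis) at levels X0 to X4 for each tested gene, HEK293A left (10 genes) and NIH3T3 right (7 genes), 1 library pair per point. In HEK293A DICER1 ends above 0 and the other 9 end below it. In NIH3T3 the lines cross and none rises or falls at every step, but every line is higher at X2 than at X1. The share of all genes higher at X2 than at X1 was not counted.

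The genes did share a pattern over the NIH3T3 libraries. Total RNA was lowest at X2 for 10 of 10 members, against 33.0% of all genes, and highest at X0 for 9 of 10, against 39.1%. Xpo5 was the exception, with 7.97 RPKM at X4 and 7.77 at X0. The shares are over the 10952 genes that average 1 RPKM or more. Tnrc6a, Tnrc6b and Zcchc11 lie below that filter, with 66, 82 and 50 total RNA reads at X2. Ago2 had 8.53, 5.22, 3.85, 5.32 and 5.36 RPKM from X0 to X4, Drosha 13.8, 10.4, 9.54, 11.3 and 11.2, and Ago1 14.3, 11.3, 8.92, 11.3 and 10.6. X0 stood above the libraries labelled X1 to X4 for all 3 genes. Dgcr8 had 1.89, 1.23, 0.734, 1.14 and 0.968 RPKM, and Dicer1 1.11, 0.800, 0.676, 0.970 and 1.08, so that Dicer1 was nearly as high at X4 as at X0. In polysome RNA Dicer1 had 1.12, 1.10, 1.21, 1.76 and 1.55 RPKM, with X3 and X4 highest. Polysome RNA was highest at X0 for 7 of 10 members, against 31.7% of all genes. The 3 members not highest at X0 there were Dicer1, Tnrc6a and Zcchc11. With X0 set against X1 to X4 together, Ago2 was lower in the latter by a log2 difference of -0.74 ± 0.20 (limma adjusted p = 0.0395), the only 1 of the 7 to pass, against 22.6% of all genes. X0 is 1 library here, and the spread comes from the 4 different levels X1 to X4 taken as replicates, so this p-value assumes that X0 would vary like them.

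Long genes differed between these NIH3T3 libraries. Across 10952 genes, length and the difference of X2 from X0 in total RNA had a Spearman rho of -0.32, and the members lay between the 60.2nd percentile of length (Xpo5) and the 99.8th (Tnrc6b). In HEK293A the same rho was -0.09. The part of length in the NIH3T3 pattern was not tested, and the level and the library cannot be told apart.

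**Figure D4:**
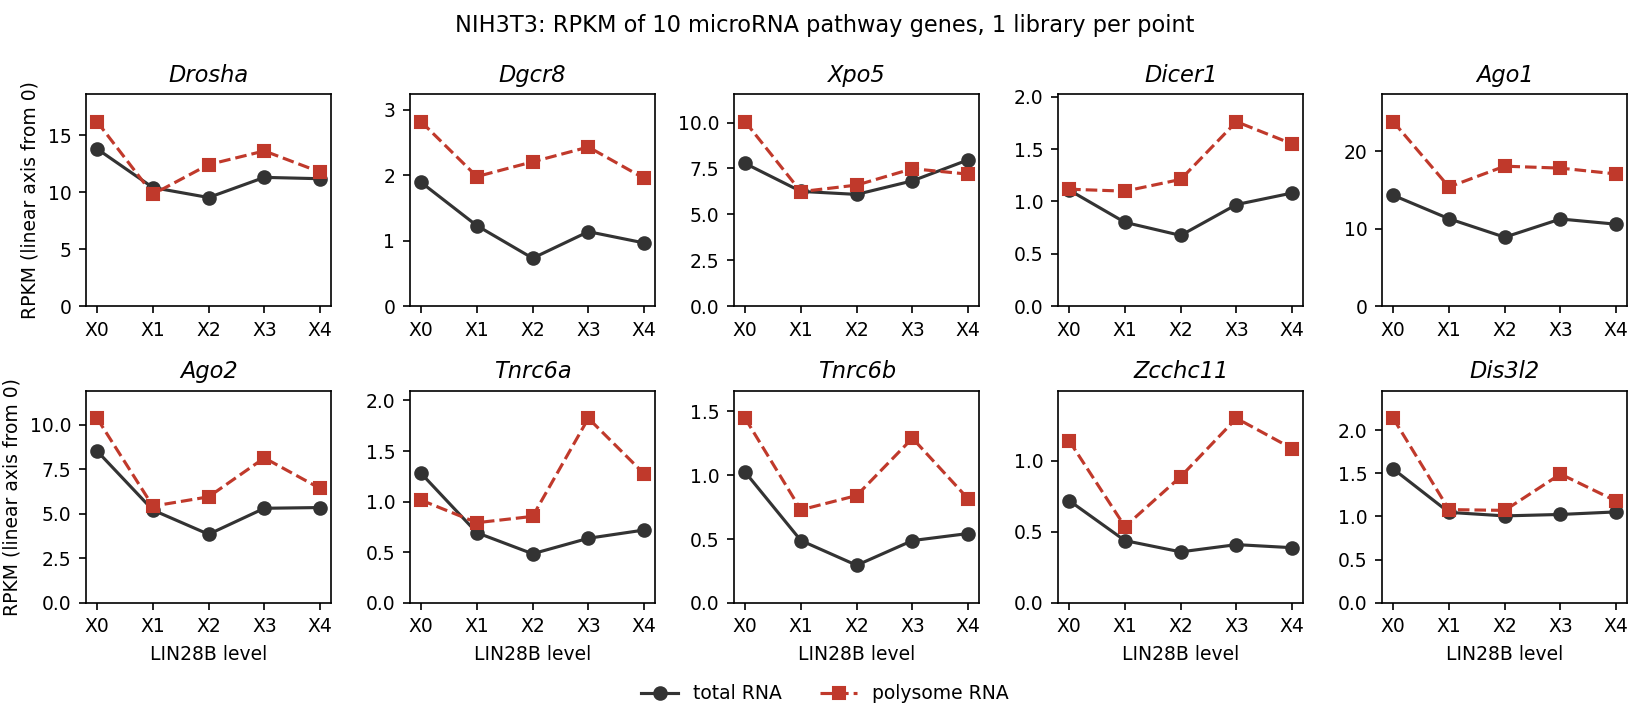
RPKM (linear axes from 0) of each gene in NIH3T3 total RNA (black circles) and polysome RNA (red squares) at levels X0 to X4, 1 library per point. Total RNA dips to its lowest at X2 in all 10 panels, and Tnrc6a, Tnrc6b and Zcchc11 average under 1 RPKM.

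The slopes per level rank of the 2 lines were also compared directly. Equal ranks are not shown to be equal LIN28B amounts in the 2 lines. The order of X0, X1 and X2 in NIH3T3 is also not checked. None of the 7 members passed the test of the difference for occupancy or total RNA with limma, against 0% of 7259 shared genes. DGCR8 and AGO2 had the smallest p-values of the 7, both in occupancy, and neither passed. How many of all shared genes had p-values as small was not counted, so nothing particular to these 2 genes is read from this. Dgcr8 in NIH3T3 minus DGCR8 in HEK293A was 0.30 ± 0.09 log2 per level (adjusted p = 0.0594) and 0.26 ± 0.08 for AGO2 (adjusted p = 0.0638), beside a median of 0.12 over all shared genes. For DICER1 the occupancy difference was -0.05 ± 0.08 (adjusted p = 0.659). Mean occupancy of DGCR8 lay at the 2.89th percentile of genes in HEK293A and of Dgcr8 at the 58.9th in NIH3T3. The tables were normalized separately, and that difference was not tested.

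With transfected let-7a at X0, polysome RNA of DGCR8 and TNRC6A was higher by more than 1 log2 unit, by 1.55 and 1.16, at the 96.8th and 91.4th percentiles of all genes. AGO1 and AGO2 were at 0.82 in polysome RNA (82.7th percentile each), and DICER1 at -0.35 in total and -0.30 in polysome RNA (20.3rd and 26.9th percentiles). There was 1 library per condition and fraction, so these are differences between libraries with no test, and the errors cover counting only. No X0 library with a control transfection is among the samples, so let-7a, transfection itself and the library cannot be told apart. The polysome library with let-7a held 7388569 reads. Past 1 log2 unit in either direction there were 0 of 10 members in total RNA, against 3.84% of 11217 genes, 2 in polysome RNA against 17%, and 1 in occupancy against 5.14%. These members were higher, beside 11.9% of all genes higher in polysome RNA and 3.85% in occupancy. The median gene differed by 0.00, 0.14 and 0.15 in these 3 measures.

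DGCR8 had 6.10 RPKM in polysome RNA without and 18.8 with let-7a, and 14.1 and 17.4 in total RNA. Its occupancy was higher by 1.26 ± 0.08 log2, at the 98.6th percentile. AGO2 had 4.62 and 8.57 RPKM in polysome RNA and 11.5 and 10.1 in total RNA, an occupancy difference of 0.997 ± 0.128 at the 96.1st percentile. TNRC6A had 4.61 and 10.9 RPKM in polysome RNA and 11.9 and 17.7 in total RNA. Both fractions of TNRC6A were thus higher with let-7a, and its occupancy differed by 0.60.

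DICER1 had 8.56 RPKM in total RNA without and 6.60 with let-7a, a log2 difference of -0.35 ± 0.03 at the 20.3rd percentile. Its polysome RNA was 4.12 and 3.25 RPKM, and its occupancy differed by 0.05 ± 0.11. XPO5 had 27.8 and 20.5 RPKM in total RNA but 18.3 and 19.9 in polysome RNA. For AGO1, polysome RNA was 5.35 and 9.86 RPKM. DROSHA, TNRC6B, ZCCHC11 and DIS3L2 differed by -0.16 to 0.38 log2 in total RNA and by 0.00 to 0.38 in occupancy. LIN28B itself had 3.60 RPKM without and 1.41 with let-7a.

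**Figure D5:**
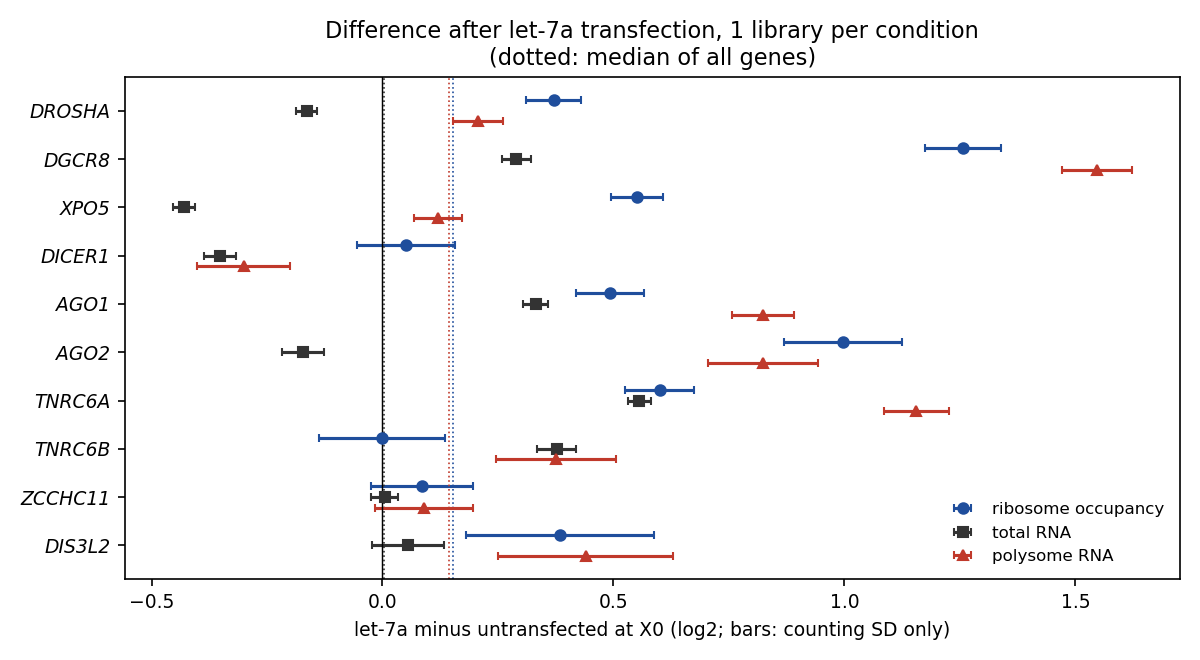
Difference of let-7a transfected from untransfected X0 HEK293A cells (log2, x axis) in occupancy (blue circles), total RNA (black squares) and polysome RNA (red triangles) for each gene; bars are the counting SD and dotted lines the medians of all genes. DGCR8 lies at 1.55 in polysome RNA and 1.26 in occupancy, and DICER1 at -0.35 in total RNA.

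The let-7a comparison and the LIN28B series share the untransfected X0 libraries, so their values are given side by side and not related. Only 2 of the 10 members are set side by side here, so they do not stand for the rest. DGCR8 polysome RNA was 6.10 RPKM at X0, 18.8 with let-7a and 2.81 at X4, and its total RNA 14.1, 17.4 and 12.7. DICER1 total RNA was 8.56 RPKM at X0, 6.60 with let-7a and 15.1 at X4, and its polysome RNA 4.12, 3.25 and 12.2.

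In the 8 small RNA libraries, which held 73083 to 172995 counts, all 10 genes had 0 counts. That allows a share of up to 0.00173 to 0.00410% of counts per library (3 counts of the total, counting error only). These came from knockout and X3 cells, with and without transfected let-7, as total small RNA and as RNA bound to AGO2 in an immunoprecipitation. The 11 features named for let-7 hairpins held 5, 4, 3 and 1 counts in the 4 libraries with transfected let-7 and 0 in the 4 without. With so few let-7 counts even after let-7 transfection, 0 counts of a gene say little about its RNA. The reason for the low let-7 counts was not tested.

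The genes whose pattern was most like that of DICER1 over the 10 HEK293A libraries were YOD1, HAUS2, C9orf41, KLHL23 and FNDC3A, with Pearson r of 0.973, 0.972, 0.969, 0.967 and 0.966. They were the 5 highest of 7126 genes averaging at least 5 RPKM, and 120 genes had r over 0.9. All 10 libraries share the contrast of fractions, so r here describes likeness only. YOD1 had 2.21 RPKM in polysome RNA at X0 and 10.1 at X4, and FNDC3A 4.81 and 16.6.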

How the data were processed

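Total RNA and polysome RNA were measured in HEK293A and NIH3T3 at 5 LIN28B levels. The authors deposited RPKM per gene, and counts per gene for small RNA. Per the submitters' processing notes, cutadapt and STAR were used with hg19 and mm10; no source used here gives the counting program or annotation. Gene length and whole reads were recovered from the RPKM steps (99.9 to 100% of genes whole, tolerance 0.02 reads), so lengths are as recovered. Slopes over level rank 0 to 4 were fitted with limma 3.58.1 (R 4.3.3, eBayes with a variance trend) on log2(RPKM + 0.5), keeping genes that average 1 RPKM or more over 10 libraries. P-values were adjusted by Benjamini-Hochberg over all genes, threshold 0.05. The difference in slope between lines used 1 fit over shared symbols. Fold changes are on this scale and understate changes of low genes. The columns may not be separate cultures, so p-values measure the scatter between these libraries.

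Alternatives were other pseudocounts, filters, centring on the 20% trimmed mean, quantile normalization, X0 against the rest, leaving out each level, and edgeR 4.0.16 on recovered reads. A variance trend over expression was added after seeing the data. Fits were tested on simulated data with 200 changed genes. The members and lists were chosen with earlier results of these data known. Named genes are all 10 members, LIN28B, up to 3 genes of smallest p per partner list and trend, and the 5 genes most like DICER1; 1 gene that the rule names is not reported here. Of the 10 proteins no sequence was used here.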

Additional observations from a re-analysis of the deposited data

How the results depend on the processing

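No paired analysis was possible because each group holds 1 library, so groups share fewer than 2 replicate numbers; occupancy already takes the 2 fractions of a level as a pair. In HEK293A, 6 members passed for occupancy, 3 with centred libraries, 1 with quantile normalization, 0 with X0 against X1 to X4, and 0 to 7 when 1 level was left out; the cause was not tested. For polysome RNA the 6 became 3 with centring, 3 with quantile normalization, 0 with X0 against the rest and 0 to 6 with 1 level left out. For total RNA the 0 became 1 over log2 LIN28B RPKM and 0 to 1 with 1 level left out. In NIH3T3 total RNA, 0 became 1 (Ago2) with X0 against X1 to X4. The occupancy difference between lines had 0, and 0 to 1 with 1 level left out: DGCR8 passed without X2. After let-7a, 1 member passed 1 log2 unit in occupancy and 2 with a pseudocount of 0.1. No called slope changed sign under any alternative run. In HEK293A occupancy, other pseudocounts, filters, edgeR, log2 LIN28B RPKM and the variance trend over expression kept the count within 1.5 times. Single calls were still lost, such as DIS3L2 with a pseudocount of 1 and XPO5 with edgeR. Depth limits DIS3L2 most, at 33 polysome reads in X4.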
